A study of Mus musculus with 6 samples.

Results

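Cholesterol synthesis, uptake, efflux and their control were followed here through 35 named mouse genes in NIH-3T3 cells, an established embryonic fibroblast line. Members were found by matching the Ensembl identifiers of the deposited table to GENCODE M21 symbols, and 34 of the 35 had a row among the 16540 genes of the table. Abcg1, the remaining member, had no row and is not analysed here. All 34 passed the filter on low values.

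By its title, the series concerns the need of tumour fibroblasts for pyruvate carboxylase when they make collagen. All cells carried Cas9 and a guide RNA from lentivirus, were selected with 2 ug/mL puromycin and were used as uncloned pools, so each pool mixes cells with different edits. Control cells had the guide R26 sg1, and the other pools had PC sg2 or PC sg5, with 2 libraries for each guide and 6 in all. Before RNA was taken, every pool spent 48 h in DMEM with 0.2 mM glutamine and 10% dialyzed serum. Whether both libraries of a guide are separate cultures is not stated in the labels. The p-values therefore measure only how these samples spread, and part or all of that may be technical. In bulk RNA, fewer cells expressing a gene and less RNA per cell cannot be told apart.

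Cells build cholesterol from acetyl-CoA by way of mevalonate, farnesyl diphosphate, squalene and lanosterol. Most enzymes of this route, and part of the uptake machinery, are known targets of SREBP2, a transcription factor held in the endoplasmic reticulum by SCAP and the INSIG proteins while sterols are plentiful and released to the nucleus when they are scarce. LXR receptors, which bind oxysterols, act in the other direction and switch on genes that export cholesterol and limit its uptake, while SOAT enzymes store the surplus as esters. Farnesyl diphosphate also feeds branches that make dolichol, ubiquinone and the lipid anchors of proteins.

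SREBP factors bind sterol regulatory elements, often near a CCAAT box, the site of the factor NF-Y, so the 250 bases before each RefSeq start (build GRCm38.p6) were searched on both strands. Promoter sequences were found for 29 of the 34 members, the others being Fdps, Fdft1, Stard4, Sqle and Scarb1. The element TCACNCCAC was present for 1 of these 29 genes (3.45%) and for 1.28% of the 11060 genes of the table with a promoter sequence. Its first 8 bases, TCACNCCA, a shorter form searched after the first result was seen, occurred for 3 of the 29 (10.3%) against 4.05% of all genes. A CCAAT box, also added to the search later, was present for 23 of the 29 (79.3%) and for 40.2% of all genes, and per promoter sequence for 24 of 38 (63.2%) against 35.1%. Genes with more than 1 start have more sequence in the first kind of count. The upstream sequences below are those of the 3 members with TCACNCCA, of Idi1, which had the largest fall of all members, and of Ggps1, the only pathway enzyme in the set that rose. They are written 5′ to 3′ on the strand of the gene, with the matches to TCACNCCA and CCAAT, or to their reverse complements, in capitals. No CCAAT match overlaps a TCACNCCA match in them.
Hmgcs1, chr13:119690101-119690350, plus strand: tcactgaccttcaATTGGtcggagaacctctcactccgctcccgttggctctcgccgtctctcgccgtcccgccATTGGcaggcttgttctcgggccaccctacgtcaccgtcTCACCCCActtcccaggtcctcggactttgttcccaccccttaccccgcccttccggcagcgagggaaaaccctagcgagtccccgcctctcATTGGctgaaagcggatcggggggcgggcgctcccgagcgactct
Msmo1, chr8:64733579-64733828, minus strand: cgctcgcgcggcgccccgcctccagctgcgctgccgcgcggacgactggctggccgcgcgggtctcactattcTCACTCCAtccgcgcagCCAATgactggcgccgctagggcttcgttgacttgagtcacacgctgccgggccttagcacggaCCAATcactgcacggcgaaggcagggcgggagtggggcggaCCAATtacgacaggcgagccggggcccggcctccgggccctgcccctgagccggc
Srebf2, chr15:82147019-82147268, plus strand: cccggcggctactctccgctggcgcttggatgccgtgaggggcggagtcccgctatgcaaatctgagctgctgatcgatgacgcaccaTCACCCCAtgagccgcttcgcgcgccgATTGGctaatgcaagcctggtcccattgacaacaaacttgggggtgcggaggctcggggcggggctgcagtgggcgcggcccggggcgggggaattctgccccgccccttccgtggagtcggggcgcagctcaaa
Idi1, chr13:8885356-8885605, plus strand: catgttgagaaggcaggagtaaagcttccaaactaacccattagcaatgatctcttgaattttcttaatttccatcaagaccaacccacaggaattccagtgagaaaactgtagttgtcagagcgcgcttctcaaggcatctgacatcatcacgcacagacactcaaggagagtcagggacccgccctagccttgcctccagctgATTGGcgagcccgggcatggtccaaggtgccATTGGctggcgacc
Ggps1, chr13:14063489-14063738, minus strand: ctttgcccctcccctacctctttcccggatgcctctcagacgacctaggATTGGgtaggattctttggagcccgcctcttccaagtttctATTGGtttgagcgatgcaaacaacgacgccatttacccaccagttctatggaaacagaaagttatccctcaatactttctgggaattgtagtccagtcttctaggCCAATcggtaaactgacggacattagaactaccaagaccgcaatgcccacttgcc
Of these, Hmgcs1 has TCACNCCA from 137 to 130 bases before the start and CCAAT boxes in reverse from 176 and 45 bases before it, among 3 in all. Srebf2 has the element 162 bases and a CCAAT box 135 bases before the start. Msmo1 has the element 177 bases before the start and 3 CCAAT boxes. Both Idi1, with 2 CCAAT boxes, and Ggps1, with 3, have no TCACNCCA in this window. CCAAT boxes were found for 18 of 22 members that fell with the PC guides and for 5 of 7 that did not. These matches describe letters only, and binding was not measured.

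Depth differed between libraries, with 22895172 recovered reads for PC sg5 replicate 2, the shallowest, and 71710049 for control replicate 2, the deepest, and a count of 3 reads corresponded to between 2.18 and 6.41 normalised counts. The targeted gene checked the labels. Pcx, which encodes pyruvate carboxylase, had 2914 and 3015 normalised counts in control cells, 316 and 375 under PC sg2 and 713 and 716 under PC sg5. All 4 PC libraries lay far below both controls, and the PC sg2 libraries lay below the PC sg5 libraries. Fibroblast markers were all present (10 of 10 in the table), with sums of 1253110 to 1303310 normalised counts in control cells, 536731 to 551895 under PC sg2 and 525622 to 532664 under PC sg5, so the fibroblast markers fell together with the sterol genes (10 of 10 lower). Their part in the results below was not tested. Markers of other cells were scarce. Of 7 adipocyte markers 1 had a row, of 5 epithelial markers 1, of 4 endothelial markers 2, of 4 steroidogenic markers 1 and of 4 hepatocyte markers 0. Those with rows also moved in part. Star, the steroidogenic marker, rose from a mean of 282 to 361 normalised counts, the epithelial marker Cdh1 fell from 58.1 to 12.6 and the adipocyte marker Fabp4 from 19.1 to 6.15, while the endothelial markers Pecam1 and Tek did not pass. Macrophage and leukocyte markers had 5 of 7 rows, with sums of 1430 to 1539 normalised counts in control cells and 876 to 932 across the PC libraries; Ptprc and Adgre1 had no row. Most of that sum is Cd14, at 889 in the control and 663 across the PC libraries. Mpeg1 fell to 14.6% of its control mean, Csf1r to 36.1% and Lyz2 to 39.8%, and Cd68 did not pass. The part of these markers in the results was not tested either.

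With both PC guides together against the control, the cholesterol pathway fell along almost its whole length. Of the 21 enzymes, 19 fell, 16 of them at least 2-fold, 1 rose (Ggps1) and 1 did not pass the test (Lbr). Summed over the 21 enzymes, normalised counts were 122496 and 122465 in control cells, 45787 and 44224 under PC sg2, and 46012 and 46354 under PC sg5. The sum in each PC library was thus below both controls by a wide margin, while the control libraries were nearly equal. The median log2 fold change of the enzymes was -1.42, beside -0.01 over all genes tested. Counts of genes past the threshold need a high background in view. By limma with Benjamini-Hochberg adjustment over 16526 genes, 67.9% of all genes passed an adjusted p of 0.05, 33.6% lower and 34.3% higher, and 11.3% were lower by at least 2-fold. Among all 34 members, 26 fell, 6 rose and 2 did not pass (median -1.29), and 21 fell at least 2-fold. Every member described below as risen or fallen reached an adjusted p of at most 0.047 in that limma model. Quantile normalisation and scaling without the 50 most abundant genes turned none of these directions. Fold changes are on the log2(normalised count + 1) scale, from 2 control and 4 PC libraries, with the standard error (SE) of the model.

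**Figure D1:**
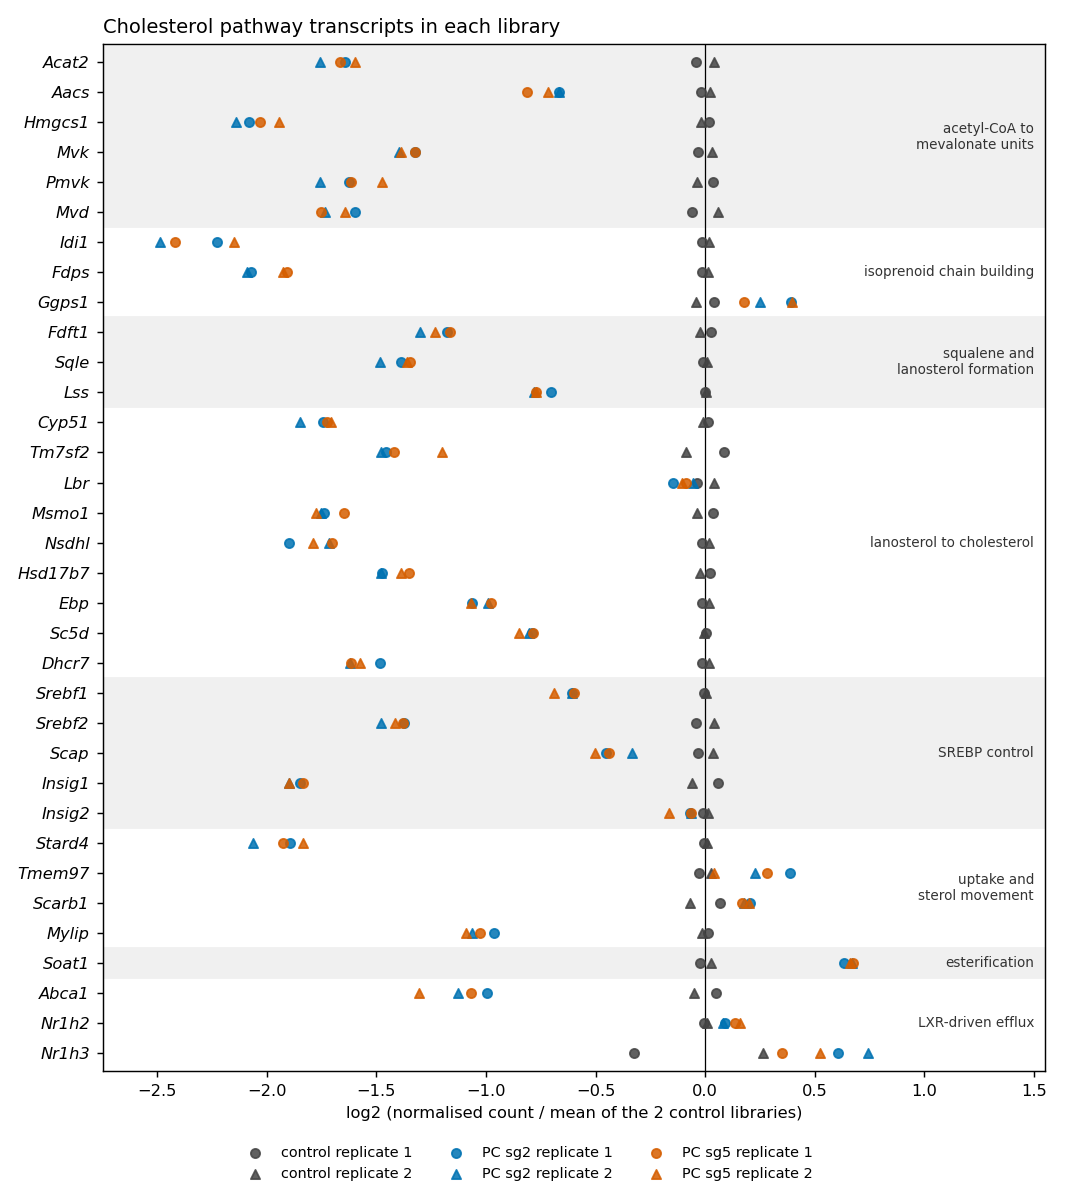
Each row is 1 gene and each point 1 library, placed at the log2 ratio of its normalised count to the mean of the 2 control libraries; circles are replicate 1 and triangles replicate 2. For 19 of the 21 enzymes all PC points lie clearly left of both controls, while for Ggps1, Tmem97, Scarb1, Soat1, Nr1h2 and Nr1h3 all lie to the right of both. Among all genes tested, all 4 PC libraries lay below both controls in 36.6% and above both in 36.6%.

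The steps from acetyl-CoA to mevalonate units were lower in all 6 enzymes measured, beside 33.6% of all genes tested. Hmgcs1 (ENSMUSG00000093930, chromosome 13, 119690379 to 119708260, plus strand, GRCm38) makes HMG-CoA from acetoacetyl-CoA and is a classical SREBP2 target. It had 21204 and 20669 normalised counts in control cells, 4942 and 4752 under PC sg2 and 5124 and 5446 under PC sg5. The groups did not overlap, and the PC mean of 5066 ± 295 (SD, n = 4) was 24.2% of the control mean of 20937 ± 378 (SD, n = 2). Its log2 fold change was -2.05 ± 0.03 (SE), the largest fall among these 6. Exons of Hmgcs1 share 12.1% of their bases with Gm48342 on the other strand.

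Acat2, the cytosolic thiolase that joins acetyl-CoA units, fell by 1.67 ± 0.04 (SE) on the log2 scale. Its reads are uncertain, since 65.6% of its transcript has a match of at least 95% identity in Acat3, a gene with few counts that moved the same way (89.3 in the control, 31.2 across the PC libraries). The mevalonate kinase gene Mvk, the phosphomevalonate kinase gene Pmvk and the decarboxylase gene Mvd had log2 fold changes of -1.36, -1.62 and -1.68. Aacs, which activates acetoacetate for lipid synthesis, fell least, with 7239 and 7453 normalised counts in control cells and 4178 to 4631 across the PC libraries (log2 fold change -0.72 ± 0.04, SE). Even there the groups did not overlap, as in 36.6% of all genes tested, where all 4 PC libraries lay below both controls.

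The isoprenoid steps split. Idi1 (ENSMUSG00000058258, chromosome 13, 8885501 to 8892451, plus strand), the isomerase that makes dimethylallyl diphosphate, had 2117 and 2167 normalised counts in control cells, 457 and 382 under PC sg2, and 401 and 483 under PC sg5. This was the largest fall of any member, to 20.1% of the control mean, with a log2 fold change of -2.32 ± 0.09 (SE). Fdps, the farnesyl diphosphate synthase gene, had 6647 and 6783 normalised counts in control cells against 1577 to 1792 across the PC libraries, so that the PC mean was 25.1% of the control mean. Exons of Fdps share 26.7% of their bases with Gm43738 on the same strand, and several pseudogenes resemble it, of which Gm3571 has a row (34.2 normalised counts in the control, 6.82 across the PC libraries).

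Ggps1 (ENSMUSG00000021302, chromosome 13, 14050659 to 14063488, minus strand) extends farnesyl to geranylgeranyl diphosphate, a donor for the lipid anchors of proteins, and thus leads away from sterols. Its normalised counts were 823 and 777 in control cells, 1050 and 950 under PC sg2, and 904 and 1052 under PC sg5. All 4 PC libraries were above both controls, and the log2 fold change was 0.30 ± 0.07 (SE). It was thus the only enzyme of the 21 with this direction.

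All 3 enzymes that form squalene and lanosterol fell, beside 33.6% of all genes tested. Sqle (ENSMUSG00000022351, chromosome 15, 59315077 to 59331192, plus strand), the squalene epoxidase gene, had 14690 and 14858 normalised counts in control cells, 5651 and 5287 under PC sg2 and 5815 and 5756 under PC sg5, with no overlap and a log2 fold change of -1.39 ± 0.03 (SE). Fdft1, which encodes squalene synthase and commits farnesyl diphosphate to sterols, fell by 1.22 ± 0.04 (SE) on the log2 scale. Its exons share 18.3% of their bases with Ctsb, a cathepsin gene on the other strand with 26556 normalised counts in the control and 28474 across the PC libraries, and without stated use of the strand these reads cannot be told apart. Lss, the lanosterol synthase gene, fell least of the 3, from 5933 ± 16.5 (SD, n = 2) to 3510 ± 90.5 (SD, n = 4) normalised counts, a log2 fold change of -0.76 ± 0.04 (SE).

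From lanosterol to cholesterol, 8 of 9 enzymes fell, beside 33.6% of all genes tested. Cyp51 (ENSMUSG00000001467, chromosome 5, 4081145 to 4104746, minus strand), the lanosterol demethylase gene, had 13353 and 13135 normalised counts in control cells and 3672 to 4051 across the PC libraries, and changed by -1.76 ± 0.03 (SE) on the log2 scale. The C4 demethylation genes Msmo1, Nsdhl and Hsd17b7 had log2 fold changes of -1.73, -1.78 and -1.42. Dhcr7, which reduces the last double bond to give cholesterol, fell by 1.57 ± 0.06 (SE), from 2393 and 2444 normalised counts in control cells to between 787 and 865. Ebp and Sc5d, the sterol isomerase and desaturase genes, had smaller changes of -1.03 and -0.81.

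The step after Cyp51, reduction of the C14 double bond, can be made by either of 2 proteins. Tm7sf2 (ENSMUSG00000024799, chromosome 19, 6062821 to 6068373, minus strand) encodes the reductase of the endoplasmic reticulum, and had 849 and 753 normalised counts in control cells, 291 and 287 under PC sg2 and 299 and 348 under PC sg5. Lbr (ENSMUSG00000004880, chromosome 1, 181815335 to 181843046, minus strand) encodes the lamin B receptor of the inner nuclear membrane, which has the same activity, and had 2287 and 2410, then 2123 and 2260, then 2210 and 2182. The fall of Tm7sf2 was clear of overlap (log2 fold change -1.38 ± 0.10, SE), whereas the lower control library of Lbr lay only just above the highest PC library. Lbr had a log2 fold change of -0.10 ± 0.05 (SE), with 0.0639 as the adjusted p of limma. Over the alternatives its adjusted p ranged from 0.0256 to 0.425, and it passed in 3 of 16 of them, namely quantile normalisation, the replicate block and the fit without PC sg2 replicate 2 (-0.12, adjusted p = 0.0378). No test compared Lbr with Tm7sf2 directly. Exons of Tm7sf2 share 12.1% of their bases with Vps51, and those of Lbr 10.7% with other genes.

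Per kilobase of annotated exon, Hmgcs1 was the most abundant enzyme transcript in control cells at 4557 normalised counts per kb, followed by Cyp51 at 3000 and Sqle at 2664, and Ggps1 (169) and Tm7sf2 (182) were the least. In the PC libraries Aacs led at 1161 normalised counts per kb, ahead of Hmgcs1 at 1103 and Sqle at 1015, and Tm7sf2 stood at 69.6. Lbr was above Tm7sf2 in both, at 493 against 182 in control cells and 461 against 69.6 across the PC libraries. Exon lengths here join all annotated transcripts of a gene, so a gene with long unused exons is set too low.

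**Figure D2:**
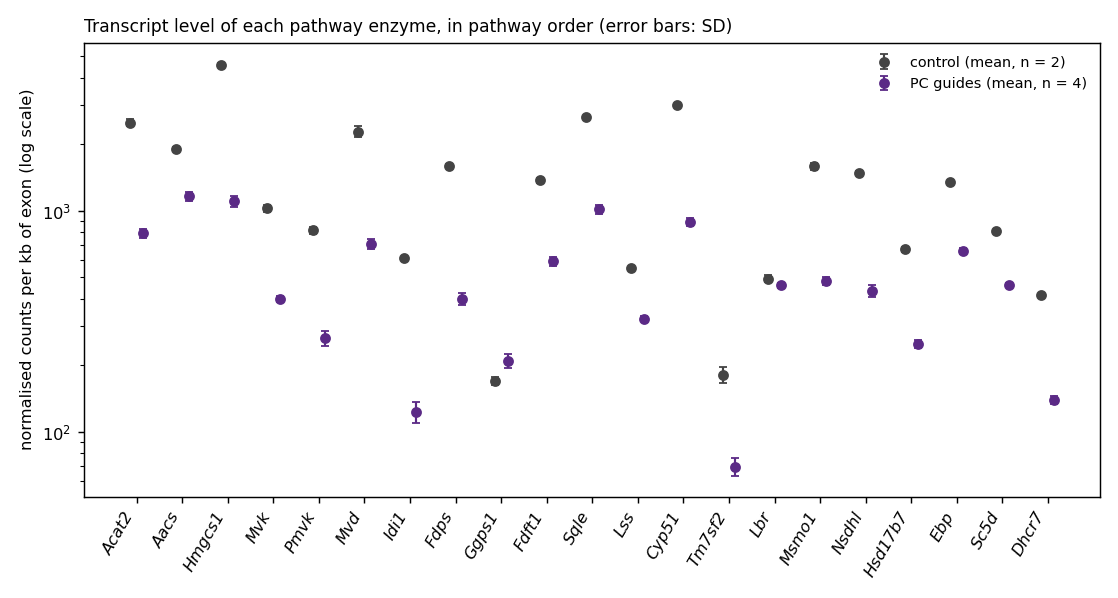
Mean level of each enzyme transcript in normalised counts per kb of exon on a log axis, for the control (n = 2) and all PC libraries (n = 4), with SD as error bars, in pathway order. The drop is seen at every step except Ggps1, which rose from 169 to 210, and Lbr, at 493 and 461.

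Of the 5 SREBP control genes, 4 fell and 1 did not pass, beside 33.6% of all genes tested that were lower. Srebf2 (ENSMUSG00000022463, chromosome 15, 82147181 to 82205379, plus strand), which encodes SREBP2 and is itself a target of SREBP2, had 26121 and 27679 normalised counts in control cells, 10361 and 9659 under PC sg2, and 10348 and 10068 under PC sg5. The groups were far apart, with a log2 fold change of -1.41 ± 0.03 (SE). Srebf1, whose products mainly drive fatty acid synthesis, fell less, by 0.63 ± 0.04 (SE), from 3782 and 3803 to between 2353 and 2503. Scap, the sterol sensor that escorts SREBPs to the Golgi, fell by 0.43 ± 0.04 (SE), from 5501 ± 182 (SD, n = 2) to 4079 ± 201 (SD, n = 4) normalised counts. Of its transcript, 18.9% has a match of at least 95% identity in 5830462I19Rik on the other strand. That gene had 92.7 normalised counts in the control and 69.1 across the PC libraries.

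The INSIG genes, whose proteins retain SCAP in the endoplasmic reticulum, are given side by side. Insig1 (ENSMUSG00000045294, chromosome 5, 28071363 to 28078662, plus strand), a known SREBP target, had 5148 and 4747 normalised counts in control cells, 1371 and 1326 under PC sg2 and 1386 and 1325 under PC sg5. Its log2 fold change was -1.87 ± 0.05 (SE), close in size to that of the most affected enzymes. Insig2, known to be regulated apart from SREBP, had 1765 and 1790 in control cells, 1693 and 1697 under PC sg2 and 1702 and 1584 under PC sg5. All PC libraries of Insig2 lay slightly below the controls, but the log2 fold change of -0.09 ± 0.05 (SE) did not pass (limma Benjamini-Hochberg adjusted p = 0.110). Without PC sg5 replicate 1 it passed (-0.12, adjusted p = 0.0439), within a range of 0.0439 to 0.413 over the alternatives. The difference between Insig1 and Insig2 itself was not tested.

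Genes of uptake and sterol movement moved in both directions, with 2 lower and 2 higher. Over all genes tested the split was near even too, with 33.6% lower and 34.3% higher. Stard4, which encodes a soluble sterol carrier and is an SREBP2 target, had 5089 and 5128 normalised counts in control cells, 1374 and 1222 under PC sg2, and 1342 and 1432 under PC sg5 (log2 fold change -1.93 ± 0.05, SE). Mylip encodes an LXR-induced ubiquitin ligase that marks lipoprotein receptors for breakdown, and fell from 3630 ± 50.7 (SD, n = 2) to 1770 ± 69.6 (SD, n = 4) normalised counts (-1.04 ± 0.05, SE). In neither gene did the groups overlap.

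Tmem97, the sigma-2 receptor gene, is known as a sterol-responsive gene, and here it was not lower. Its normalised counts were 1552 and 1613 in control cells, 2066 and 1852 under PC sg2 and 1924 and 1629 under PC sg5, so that PC sg5 replicate 2 lay just above the controls. The log2 fold change was 0.23 ± 0.06 (SE), and the call was lost without the intensity trend (limma Benjamini-Hochberg adjusted p = 0.0941, range over the alternatives 8.2e-05 to 0.0941). Against the control alone, PC sg5 did not pass for this gene. Scarb1, the receptor for high-density lipoprotein, had 1550 and 1408 in control cells and 1661 to 1703 across the PC libraries (0.19 ± 0.05, SE). Its call rested on control replicate 2: without that library the log2 fold change was 0.12 (adjusted p = 0.137, range over the alternatives 0.000572 to 0.137).

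Esterification was represented by Soat1 (ENSMUSG00000026600, chromosome 1, 156424525 to 156474331, minus strand), which encodes the acyltransferase that turns cholesterol into its storage esters. It rose, with 6259 and 6475 normalised counts in control cells, 9862 and 10135 under PC sg2, and 10166 and 10050 under PC sg5. The 4 PC libraries were within a narrow band above both controls, as were those of 36.6% of all genes tested. The log2 fold change was 0.66 ± 0.03 (SE).

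Of the 3 genes measured under LXR-driven efflux, 1 had a lower transcript level and 2 a higher one. Among all genes tested, 33.6% were lower and 34.3% higher. Efflux itself and LXR activity were not measured. Abca1 (ENSMUSG00000015243, chromosome 4, 53030787 to 53159895, minus strand), the transporter that loads cholesterol onto apolipoprotein A-I and a classical LXR target, had 10505 and 9799 normalised counts in control cells, 5084 and 4637 under PC sg2 and 4834 and 4100 under PC sg5. The PC mean was 45.9% of the control mean, without overlap, and the log2 fold change was -1.13 ± 0.05 (SE). The receptor genes themselves were not lower. Nr1h2, which encodes LXR-beta, had 3870 and 3901 in control cells and 4107 to 4339 across the PC libraries (0.12 ± 0.03, SE), a small rise that missed the threshold without control replicate 1 (adjusted p = 0.0516, range over the alternatives 0.000311 to 0.0516).

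Nr1h3, which encodes LXR-alpha, was the least abundant member, with 38.0 and 57.3 normalised counts in control cells, 72.5 and 79.7 under PC sg2 and 60.7 and 68.4 under PC sg5. The controls differed from each other more than the lowest PC library did from the higher control. Its log2 fold change of 0.57 ± 0.25 (SE) passed narrowly (limma Benjamini-Hochberg adjusted p = 0.0470). The call was lost in 7 of 16 alternatives, among them edgeR (adjusted p = 0.0642), DESeq2 (adjusted p = 0.121) and the fits without control replicate 1 (0.28, adjusted p = 0.455), PC sg2 replicate 1 (adjusted p = 0.0639), PC sg2 replicate 2 (adjusted p = 0.101) or PC sg5 replicate 2 (adjusted p = 0.077). Over all alternatives its adjusted p ranged from 0.0122 to 0.455.

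Each guide against the control gave the same number of lower members. PC sg2 had 26 lower, 5 higher and 3 not past the threshold. Of all genes tested, 64.5% passed in that comparison, 31.6% lower, 32.9% higher and 11.1% lower by at least 2-fold. PC sg5 had 26 lower, 4 higher and 4 not past it, where 64.5% of all genes passed, 31.8% lower, 32.6% higher and 11.0% lower by at least 2-fold. Both comparisons use the same 2 control libraries. Side by side, the log2 fold changes under PC sg2 and PC sg5 were -2.11 and -1.99 for Hmgcs1, -2.36 and -2.28 for Idi1, -1.43 and -1.40 for Srebf2, 0.65 and 0.67 for Soat1, and -1.06 and -1.19 for Abca1.

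The 2 PC guides were also compared directly. Pcx was higher under PC sg5 by a log2 fold change of 1.05, with a 95% interval of 0.88 to 1.22. None of the 34 members passed this comparison, in which 0.242% of all genes tested did, 0.103% lower, 0.139% higher and 0.00% lower by at least 2-fold. At an unadjusted p of 0.05, limma counted 5 members (Fdps, Abca1, Aacs, Hmgcs1 and Sqle) beside 10.6% of all genes, edgeR counted 4 beside 9.49% and DESeq2 3 beside 6.16%, and none of the 3 tools called any member after adjustment. Fdps had the largest difference among the 33 members with at least 500 normalised counts in the control, at 0.17 (95% interval 0.07 to 0.26), and it was lower under PC sg2.

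Intervals cover only the spread of these libraries, which may be technical, and so do not bound how far separate pools of these guides could differ. For the 33 members with at least 500 normalised counts in the control, 95% intervals reached from -0.29 (Tmem97) to 0.39 (Tm7sf2) on the log2 scale. Nr1h3, with few reads, had a much wider interval of -0.83 to 0.36. Hmgcs1 and Abca1 passed only in the fit without PC sg5 replicate 1, which leaves 1 PC sg5 library, the shallowest of all. Their differences were 0.17 and -0.24 there, against 0.12 and -0.13 with all libraries. More of all genes tested also passed in that fit than with all libraries.

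**Figure D3:**
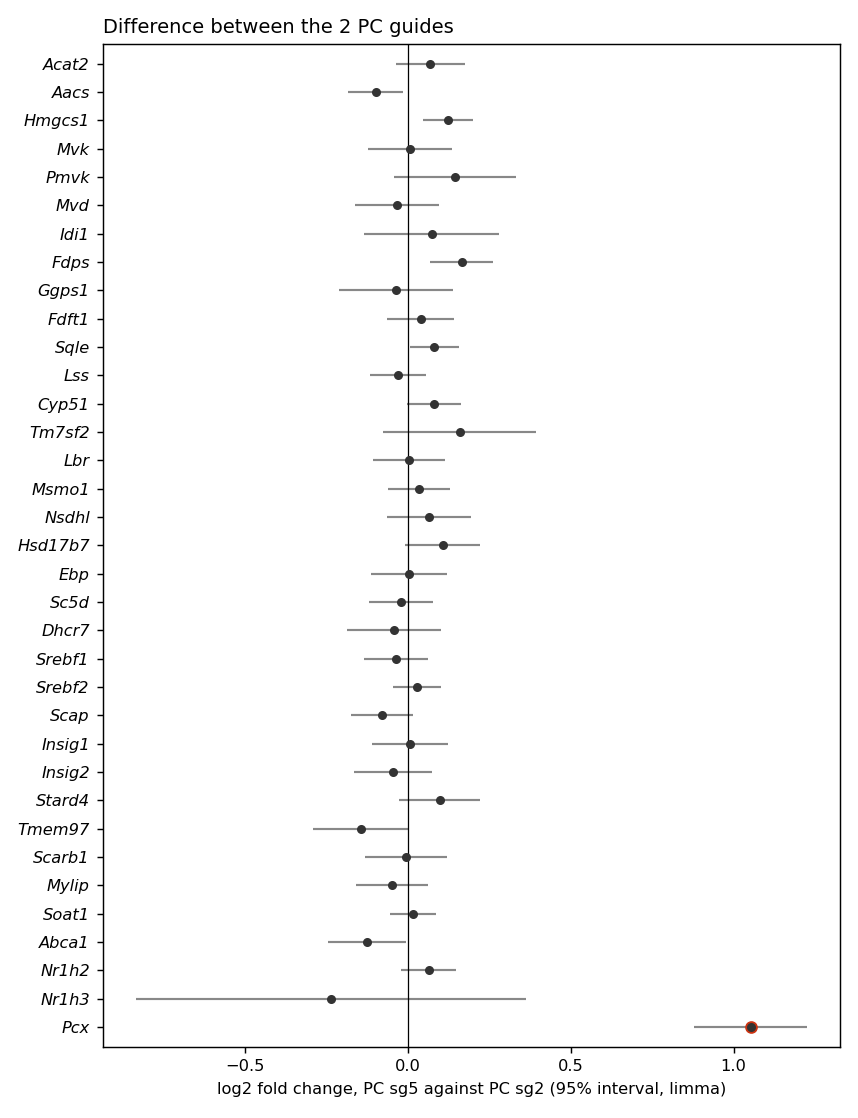
Log2 fold change of PC sg5 against PC sg2 for each member and for Pcx (bottom), with 95% intervals from limma. Member estimates lie between -0.24 (Nr1h3) and 0.17 (Fdps), while Pcx lies at 1.05.

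Further genes of sterol and isoprenoid handling did not share 1 direction. The 4 electron donors of sterol enzymes all fell, beside 33.6% of all genes tested. Cyb5a, which encodes cytochrome b5, and Cyb5r3, its reductase, fell most, with log2 fold changes of -1.55 ± 0.05 and -1.29 ± 0.02 (SE), and Cyb5r3 went from 46966 and 47547 normalised counts in control cells to between 18684 and 19587. Cyb5b and Por, the P450 reductase gene that serves Cyp51 and Sqle, had small changes of -0.24 and -0.24. Together these 4 genes had a median of -0.77.

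Branches that use isoprenoids away from cholesterol rose in 9 of 13 genes, fell in 2 and did not pass in 2 (median 0.33). Beside this, 34.3% of all genes tested were higher and 33.6% lower. Both subunits of the Rab geranylgeranyl transferase, Rabggta and Rabggtb, rose by 0.67 ± 0.06 and 0.61 ± 0.04 (SE), and the genes for processing of prenylated proteins Zmpste24 and Icmt by 0.45 and 0.36. Fnta, the shared subunit gene of the farnesyl and geranylgeranyl transferases, fell by 0.20, and Coq2, of ubiquinone synthesis, by 0.15. Coq2 missed the threshold in 3 alternatives, including those without control replicate 1 (adjusted p = 0.0751) or 2 (adjusted p = 0.0682), with a range over the alternatives of 0.00922 to 0.0751. Fntb and Pggt1b had log2 fold changes of -0.08 and -0.02 and did not pass, though Fntb passed without PC sg5 replicate 1 (-0.14, adjusted p = 0.0412).

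Among 10 genes of SREBP cleavage and of sterol-regulated turnover in the endoplasmic reticulum 6 rose, 3 fell and 1 did not pass (median 0.24). The shares over all genes tested were 34.3% higher and 33.6% lower. Paqr3, whose product anchors SCAP and SREBP in the Golgi, had 276 and 320 normalised counts in control cells, 1477 and 1552 under PC sg2 and 1413 and 1518 under PC sg5. Erlin1, which encodes an endoplasmic reticulum protein known to hold SREBP and SCAP back, had 1743 and 1806 in control cells, 5019 and 5088 under PC sg2, and 5259 and 4837 under PC sg5. The groups were far apart for both, with log2 fold changes of 2.32 ± 0.07 and 1.51 ± 0.04 (SE). The site-2 protease gene Mbtps2 rose by 0.87 ± 0.05 (SE) and the site-1 protease gene Mbtps1 fell by 0.34 ± 0.03. The ubiquitin ligase gene Rnf145, a known LXR target, fell by 0.68 and Pgrmc1 by 0.16, while Rnf139 had a change of -0.01 and did not pass. Exons of Mbtps2 share 28.4% of their bases with Yy2, those of Rnf139 26.2% with other genes and those of Paqr3 15.7% with Bmp2k.

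Lipoprotein receptors and intracellular transport genes fell in 12 of 21 cases, rose in 6 and did not pass in 3 (median -0.27). For comparison, 33.6% of all genes tested were lower and 34.3% higher. The scavenging lipoprotein receptor gene Lrp1, had 112380 and 119603 normalised counts in control cells and 63490 to 65235 across the PC libraries (log2 fold change -0.84 ± 0.02, SE). Lipa, the lysosomal acid lipase that frees cholesterol from esters, Scp2, a sterol carrier gene, and Cav1, the caveolin gene, had changes of -0.83, -0.99 and -0.71. The largest rises of the list, named after their values were seen, were those of the sterol transfer gene Gramd1b at 1.05 ± 0.05 (SE), Stard5 at 0.95 ± 0.05 and Osbpl2 at 0.91 ± 0.04. Gramd1b went from 1251 and 1208 normalised counts in control cells to between 2530 and 2581. Exons of Stard5 share 23.9% of their bases with other genes. Stard3, Osbpl9 and Osbpl10 were at -0.08, -0.07 and -0.27 and did not pass, though Osbpl9 passed without PC sg5 replicate 1 (-0.10, adjusted p = 0.0201) and Osbpl10 without the intensity trend (adjusted p = 0.0395).

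Ester and oxysterol genes, 6 of 7 in the table, rose in 2 cases, fell in 2 and did not pass in 2. Such counts are close to the shares over all genes tested (34.3% higher, 33.6% lower). Soat2, the second esterifying enzyme, had 103 and 117 normalised counts in control cells and 358 to 406 across the PC libraries (log2 fold change 1.78 ± 0.12, SE), and Nceh1, an ester hydrolase gene, rose by 0.54. Cyp7b1, an oxysterol hydroxylase gene, and Lipe, which encodes hormone-sensitive lipase, fell by 1.44 and 1.24. Exons of Lipe share 15.6% of their bases with 4732471J01Rik on the other strand. Ch25h, at between 4.05 and 15.0 normalised counts, and Hsd3b7, whose exons share 99.2% of their bases with other genes, did not pass.

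Of the LXR partners and targets, 6 of 7 in the table, 3 rose and 3 fell. Over all genes tested the split was near even too, with 34.3% higher and 33.6% lower. Abcg4, a sterol exporter gene related to Abcg1, rose from 72.3 and 50.8 normalised counts to between 208 and 277 (log2 fold change 1.94 ± 0.17, SE), and Arl4c by 1.05 ± 0.05. The phospholipid transfer protein gene Pltp fell to 35.3% of the control mean, and Lpcat3, a phospholipid remodelling gene, fell to 58.4%. Known LXR targets were therefore found in both directions. The partner receptor genes also went both ways, with Rxra at -0.80 and Rxrb at 0.41. Exons of Pltp share 19.3% of their bases with Ctsa and those of Lpcat3 10.2% with Emg1, both on the other strand.

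**Figure D4:**
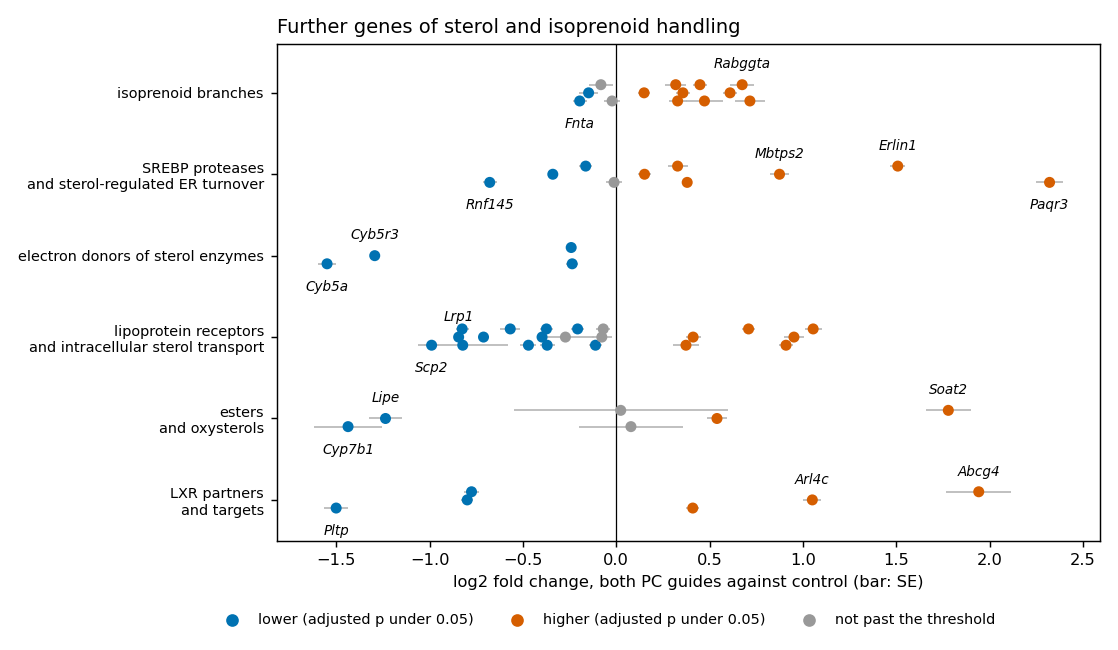
Log2 fold change of both PC guides against control (bar, SE) for the further genes, by list; blue points were lower, orange higher and grey not past the threshold. The electron donors all lie left of 0, isoprenoid branch genes mostly right of it, and Paqr3 (2.32) is the highest point.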

How the data were processed

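RNA of 6 libraries was sequenced. Per the submitters' processing notes the tools were bcl2fastq 2.17, Trimmomatic, STAR, featureCounts and DESeq2, with build GRCm38; their settings, the annotation and any use of the strand are unknown here. Deposited by the authors were normalised read counts, a signal in which gene counts are divided by 1 size factor per library. All values above 0 (100%) were whole multiples (tolerance 0.01) of 1 step per library, so whole reads were recovered. Of 16540 genes 16491 received a symbol, and no gene of the table had fewer than 61 reads in total.

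Main tests used limma 3.58.1 (R 4.3.3) on log2 values of the normalised counts after adding 1. All 3 groups shared a model with a trend of variance on intensity. Tests were two-sided, with Benjamini-Hochberg adjustment over 16526 genes that reached 10 normalised counts in 2 or more libraries. The 16 alternatives included edgeR 4.0.16 and DESeq2 1.42.0 on recovered reads. The limma script was tested on simulated data, judged on genes with a mean of at least 500, since fewer changed genes were recovered when low ones were included. Far fewer genes were changed in the simulation than passed here. It therefore does not test the normalisation or the adjustment with most genes changed. Transcripts of members were compared with all GENCODE M21 transcripts by BLAST (at least 95% identity over at least 200 bases). Members and lists were chosen with earlier results of these data known. The rule names all members, Pcx and, of each further list, the 4 genes with the smallest p and every gene of a direction with at most 5 genes. Intervals and floors cover counting error or library spread only.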

Additional observations from a re-analysis of the deposited data

Results flagged for a closer look

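Pcx differed between the 2 PC guides under the direct test, being higher with PC sg5 than with PC sg2 by 1.05 on the log2 scale (limma Benjamini-Hochberg adjusted p = 6.6e-07). Both PC sg5 libraries lay above both PC sg2 libraries. Without the intensity trend the same difference of 1.05 did not pass (adjusted p = 0.328, range over the alternatives 1.69e-10 to 0.328), and in that fit 0 of 16526 genes passed by limma, with 1241 at an unadjusted p under 0.05. No member of the cholesterol set and no named further gene passed this test of the guides.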

How the results depend on the processing

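Of the 32 members past the threshold for both PC guides against control, 28 passed in all 16 alternatives; Tmem97, Scarb1, Nr1h2 and Nr1h3 did not, as given above, and none of the 32 turned its direction. The counts for both guides stayed at 26 to 27 lower and 4 to 6 higher. For PC sg2 against control, 1 member was higher without the intensity trend, and leaving out single libraries gave 3 to 5. For PC sg5 against control, 2 were higher without the intensity trend, and leaving out single libraries gave 2 to 4. For PC sg5 against PC sg2, leaving out single libraries gave 0 to 1 lower and 0 to 1 higher. The cause of these changes was not tested. Replicate numbers are shared between guides, and replicate differences correlated at 0.02 to 0.05 between groups. A correlation taken over many genes cannot exclude a factor that acts on few of them. Whether libraries of the same number share a batch is thus not settled. With the replicate block 27 members were lower and 6 higher for both guides, the added one being Lbr (-0.10, adjusted p = 0.0495), and over all genes 160 rather than 40 differed between the PC guides. Genes with few counts, such as Nr1h3, Hsd3b7 and Ch25h, have wide errors.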
